A study of Homo sapiens with 16 samples.

Results

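Some HMLER epithelial populations can give rise to mesenchymal cells and others hold their epithelial state, and the genes that separate the former (plastic) from the latter (stable) are described here. HMLER is an established line of human mammary epithelial cells, made immortal with TERT and transformed with viral oncogenes and an activated HRAS, and every group carries these genes. The plastic groups are C2-Epi (unedited, genotype wild type), C1-sgEED-Epi (genotype EED-KO) and C1-sgKMT2D-Epi (genotype KMT2D-KO). The stable groups are C1 (unedited, wild type) and C1-sgControl (a control guide, labelled wild type). Each group has 2 RNA-seq libraries, so 10 of the 16 libraries of the series enter the comparison, 6 plastic and 4 stable. The other 6 are of mesenchymal groups and help to estimate the spread. All cells grew in the same mammary medium with insulin, EGF and hydrocortisone, without a treatment. Whether paired libraries came from different cultures is not stated, so p-values measure only the spread between libraries, which may be technical. Nor do the labels say whether a group is 1 clone, or which groups were sorted before RNA was taken, so state and clone cannot be told apart.

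An epithelial cell holds to its neighbours through cadherin, claudin and desmosome proteins and, if basal, to the matrix below through laminin, integrin and collagen XVII. In the epithelial-mesenchymal transition, transcription factors such as ZEB1, ZEB2 and SNAI2 repress these genes and cells take up N-cadherin, vimentin and a migratory shape. EED is a core subunit of the Polycomb repressive complex PRC2, which methylates histone H3 at silenced genes, and KMT2D is a histone H3 methyltransferase that works at enhancers.

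Genes were sought that shifted the same way in each plastic group against both stable groups. Counts were fitted with edgeR's quasi-likelihood test, and each of the 6 pairs of a plastic and a stable group was tested over 18285 genes with Benjamini-Hochberg adjustment. A gene had to pass an adjusted p of 0.05 in the same direction in all 6. The 6 pairs share groups and are not independent. By this rule 368 genes were higher (2.01% of genes tested) and 772 were lower (4.22%) in every plastic group. Counts of called genes in the lists below are to be set beside these shares. The median log2 difference between the plastic and stable averages was 1.24 for the higher genes (1.23 with the 3 genes that had no count in any stable library set to 3 counts per library) and -1.35 for the lower. Over all genes tested it was -0.06. The smallest of the 6 differences was 1 log2 unit or more for 103 higher and 248 lower genes. Just inside the threshold were GPX1 and FGGY, whose largest adjusted p was 0.0499 and 0.0497, and just outside it PGAP3 and SARS, at 0.0501 and 0.0502.

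The single pairs called many more genes, higher and lower respectively. Against C1 they were 12.4% and 18.3% of genes in C2-Epi, 12.5% and 12.6% in C1-sgEED-Epi, and 16.4% and 22.4% in C1-sgKMT2D-Epi. Against C1-sgControl they were 22.4% and 27.8% in C2-Epi, 24.3% and 24.6% in C1-sgEED-Epi, and 25.3% and 30.7% in C1-sgKMT2D-Epi. The 2 stable groups differed from each other in 27.1% of genes, and the 3 plastic groups among themselves in 40.8%. The average of the plastic groups was above that of the stable groups in 25.0% of genes and below it in 31.3%. All 6 plastic libraries lay above all 4 stable libraries in 8.93% of genes and below them in 14.7%, which includes all 1140 genes of the 2 sets.

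Taking each group as 1 replicate (3 plastic against 2 stable, limma on group means) gave 0 calls in either direction. The smallest adjusted p was 0.22, and 3402 genes had an unadjusted p under 0.05, of which 1476 were higher and 1926 lower. An exact permutation test over 5 groups has 10 arrangements and cannot go below p = 0.1. The calls below therefore describe these 5 groups with the spread of their libraries, and do not show that another plastic line would share them.

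**Figure D1:**
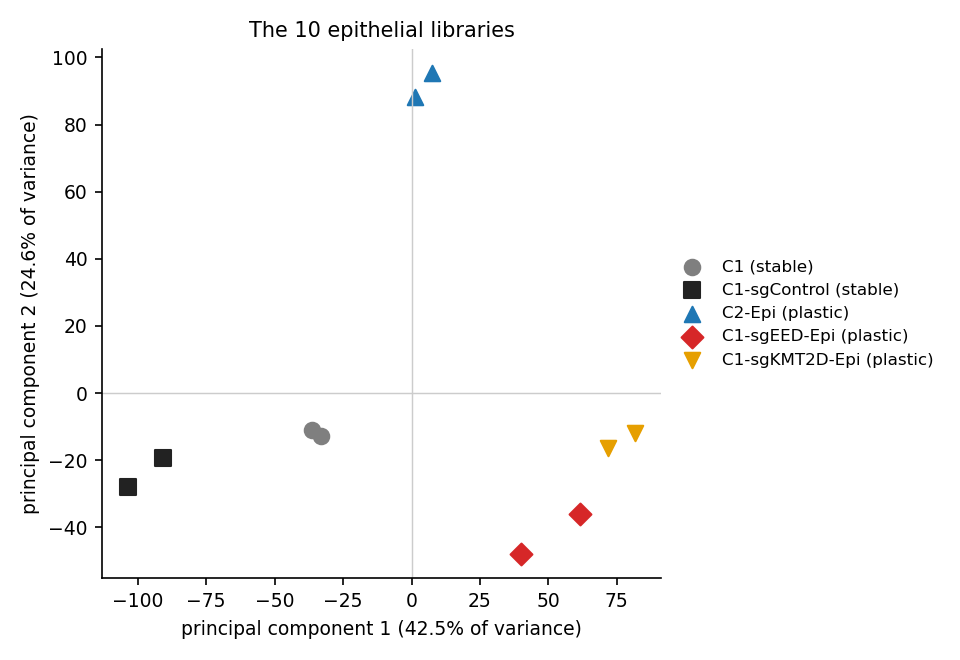
First 2 principal components of log2 CPM in the 10 epithelial libraries, 1 point per library, marked by group. Component 1 placed the 4 stable libraries between -104 and -32.9 and the 6 plastic libraries between 1.30 and 81.7, and component 2 set C2-Epi apart from the rest.

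The plot of principal components shows how the groups lay. Component 1 held 42.5% of the variance and separated plastic from stable libraries, with C1-sgControl farther out than C1. On it C1 (-32.9 and -36.3) lay nearer to C2-Epi (1.30 and 7.34) than to C1-sgControl (-90.6 and -104). Component 2 held 24.6% and placed C2-Epi at 88.2 and 95.3, with all other libraries below 0. Component 3 (15.4%) parted C1-sgEED-Epi from C1-sgKMT2D-Epi. The SD over genes of the log2 difference was 0.809 between the stable groups, 0.917 to 1.33 between a plastic and a stable group, 0.869 to 1.09 between plastic groups and 0.373 to 0.481 between the libraries of a group. The libraries of C1-sgEED-Epi and C1-sgControl differed most, with a chi-square of their counts of 42.1 and 24.6 per gene, against 5.08 to 8.37 in the other 3 groups.

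The calls moved with the base composition of the genes. Median exonic GC content was 41.7% in the higher genes, 58.4% in the lower genes and 48.1% in all genes tested, and median transcript length was 4076, 2959 and 3106 bases. With genes parted into 5 equal bins by GC, in the bin with the least GC, 4.41% were higher and 0.248% lower. In the bin with the most, 0.138% were higher and 11.7% lower. The 2 stable groups differed along GC too. The median log2 difference of C1-sgControl against C1 was -0.47 in the bin with the least GC and 0.20 in that with the most. With a correction of GC and length fitted in each library, 399 genes were higher (2.18%) and 440 lower (2.41%), so that 47.6% of the calls were higher instead of 32.3%. With and without the correction, 189 genes were higher and 304 lower. The part of base composition in the results was not tested. Corrected values are given below for some of the genes described.

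**Figure D2:**
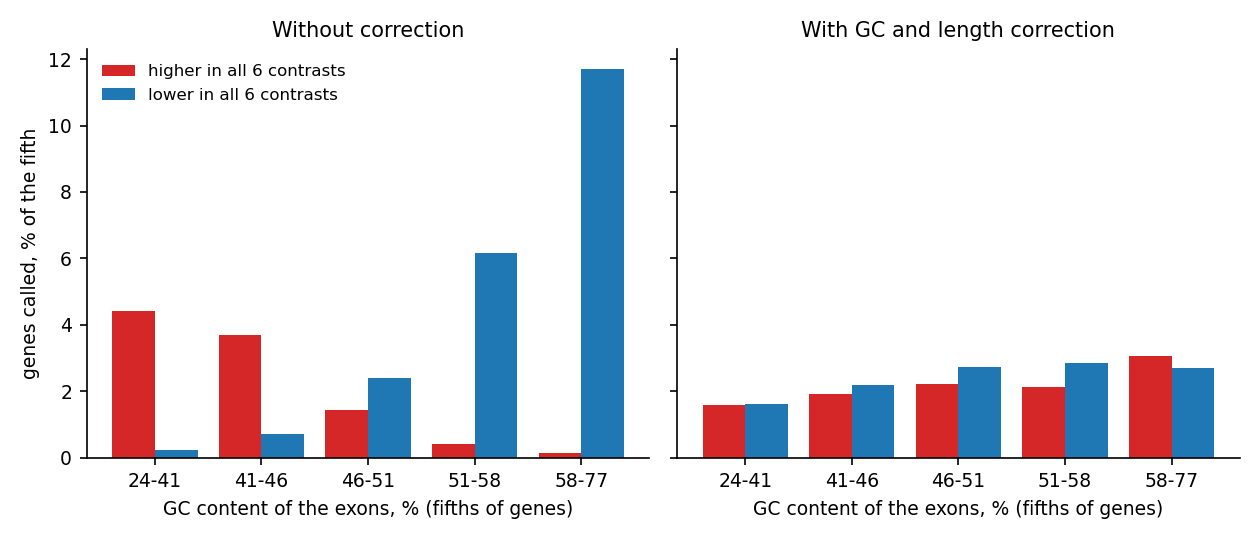
Share of the genes in each of 5 equal bins of exonic GC content that were higher (red) or lower (blue) in all 6 pairs, in percent, without (left) and with (right) the GC and length correction. The lower genes ran from 0.248% in the bin with the least GC to 11.7% in that with the most without the correction, and from 1.62% to 2.7% with it.

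Total counts of the 10 libraries ran from 22980108 to 28058943. Transcripts of ribosomal proteins took 6.29% and 7.64% of counts in C1-sgControl and 4.03% to 5.30% in the other epithelial libraries. Markers of leukocytes, endothelium and muscle were low. Summed over 5 measured leukocyte markers they stood at 6.88 to 22.99 CPM (counts scaled to library size by TMM) in plastic and 15.5 to 53.9 in stable libraries, over 8 endothelial markers at 3.90 to 12.1 and 7.65 to 10.2, and over 6 muscle markers at 2.704 to 4.23 and 2.50 to 7.09. The 7 neural markers, described below, summed to more in plastic (48.2 to 159 CPM) than in stable libraries (13.1 to 39.7). In bulk RNA, fewer cells that express a gene and less RNA per cell cannot be told apart.

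The transcripts of the edited genes check little, since a guide can disrupt a protein without lowering its RNA. EED stood at 28.0 and 26.5 CPM in C1, 26.6 and 21.6 in C1-sgControl, 19.7 and 18.1 in C2-Epi, 26.7 and 29.6 in C1-sgEED-Epi and 38.0 and 38.3 in C1-sgKMT2D-Epi. KMT2D stood at 80.2 and 92.0 CPM in C1, 89.9 and 70.9 in C1-sgControl and 115 to 127 in the 6 plastic libraries. Neither gene passed in all 6 pairs, and without the correction neither transcript was called lower in the cells that carried its guide. With the correction EED in C1-sgEED-Epi was lower against C1-sgControl (log2 difference -0.76, adjusted p = 0.034) and not called against C1 (-0.13, 0.76), and the plastic average of EED went from 0.09 to -0.79. KMT2D passed as higher in all 6 with the correction (average log2 difference 0.87, largest adjusted p = 0.0065).

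Among transcription factors that drive the transition, 3 of 23 measured were higher in every plastic group (ZEB1, ZEB2 and TEAD1) and none was lower. ZEB1 and ZEB2 are zinc finger repressors of epithelial genes, and TEAD1 carries the co-activators YAP and TAZ to DNA. The median difference of the list was 0.25 log2 units. ZEB1 (GRCh38 chromosome 10, 31318495 to 31529814) stood at 0.0424 and 0.286 CPM in C1 and 0.504 and 0.300 in C1-sgControl, against 2.17 and 1.88 in C2-Epi, 6.02 and 1.61 in C1-sgEED-Epi and 10.2 and 9.28 in C1-sgKMT2D-Epi. All plastic libraries were above all stable ones, but the 2 C1-sgEED-Epi libraries were far apart. The average difference was 4.00 ± 0.53 log2 units (SE), with a largest adjusted p of 0.023 over the 6 pairs. With the GC and length correction it was 3.30 and the largest adjusted p 0.19, and the gene passed in 13 of 22 alternative analyses. Levels in mesenchymal libraries were of another order, from 31.2 to 333 CPM.

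ZEB2 (chromosome 2, 144364364 to 144524583) stood at 0.212 and 0.286 CPM in C1 and 0.378 and 0.171 in C1-sgControl. It stood at 2.17 and 0.884 in C2-Epi, 3.58 and 1.90 in C1-sgEED-Epi and 8.72 and 8.37 in C1-sgKMT2D-Epi. The average difference was 3.63 ± 0.36 (largest adjusted p = 0.0043, and 0.034 with the correction), and the plastic groups differed among themselves (adjusted p = 0.00023). C1-sgKMT2D-Epi held the most ZEB1 and ZEB2 of the plastic groups. Mesenchymal libraries held 54.3 to 86.0 CPM of ZEB2. TEAD1 stood at 55.6 to 105 CPM in stable libraries, 238 and 264 in C2-Epi, 204 and 141 in C1-sgEED-Epi and 225 and 209.6 in C1-sgKMT2D-Epi. Its average difference of 1.30 ± 0.16 was 0.76 with the correction, and it passed in both (largest adjusted p = 0.033 and 0.0051).

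SNAI2, another repressor of epithelial genes, was not among the genes called. It stood at 152 and 150.2 CPM in C1, 193 and 158 in C1-sgControl, 171 and 177 in C2-Epi, 125 and 143 in C1-sgEED-Epi and 237 and 204 in C1-sgKMT2D-Epi, so that the kinds of group overlapped (average log2 difference 0.08 ± 0.18).

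Of 31 mesenchymal genes, CDH2 and CDH11 were higher and ITGA5 was lower in every plastic group, with a median of 0.14 over the list. Of all genes tested, 2.01% were higher and 4.22% lower. CDH2 encodes N-cadherin, the adhesion protein that replaces E-cadherin in mesenchymal cells. It stood at 2.50 and 1.39 CPM in C1 and 1.09 and 0.771 in C1-sgControl, against 10.3 and 7.46 in C2-Epi, 80.3 and 77.9 in C1-sgEED-Epi and 11.8 and 9.68 in C1-sgKMT2D-Epi. The average difference was 3.86 ± 0.29 (largest adjusted p = 0.0013), and the plastic groups differed (adjusted p = 8.7e-06), with C1-sgEED-Epi far above the other two. CDH11, a cadherin of mesenchymal cells, stood at 23.2 to 32.1 CPM in the stable and 66.5 to 119 in the plastic libraries (average 1.68 ± 0.15, largest adjusted p = 0.00048). In the mesenchymal cells of C2 it stood at 9.12 and 4.95 CPM, below every stable library. Mesenchymal libraries of the EED and KMT2D guides held 205 to 287 CPM of CDH11. ITGA5, the fibronectin receptor subunit, lost its call with the correction (-0.91 without and -0.60 with it, largest adjusted p = 0.080).

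The genes most used to name the 2 cell states were not called. VIM, which encodes the mesenchymal filament protein vimentin, stood at 849 and 792 CPM in C1 and 1842 and 2100 in C1-sgControl, with the plastic libraries at 801 to 1542, between and within the stable groups. FN1 (fibronectin) stood at 13232 and 13099 CPM in C1, 22462 and 20900 in C1-sgControl and 12346 to 21341 in the plastic libraries. CDH1, which encodes E-cadherin, stood at 395 and 377 CPM in C1, 294 and 267 in C1-sgControl, 211 and 221 in C2-Epi, 297 and 349 in C1-sgEED-Epi and 224 and 216 in C1-sgKMT2D-Epi. EPCAM, an epithelial adhesion protein, was at 65.2 to 97.4 CPM in stable and 98.8 to 147 in plastic libraries. These 2 groups of EPCAM values do not overlap, yet the smallest pair difference was 0.14 log2 units (largest adjusted p = 0.55). On the plastic average (edgeR), CDH1 was lower (log2 difference -0.40, adjusted p = 0.028) and EPCAM higher (0.63, adjusted p = 0.00021). All 5 groups thus kept E-cadherin and EPCAM transcripts, which stood at most at 1.42 and 1.05 CPM in any mesenchymal library.

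**Figure D3:**
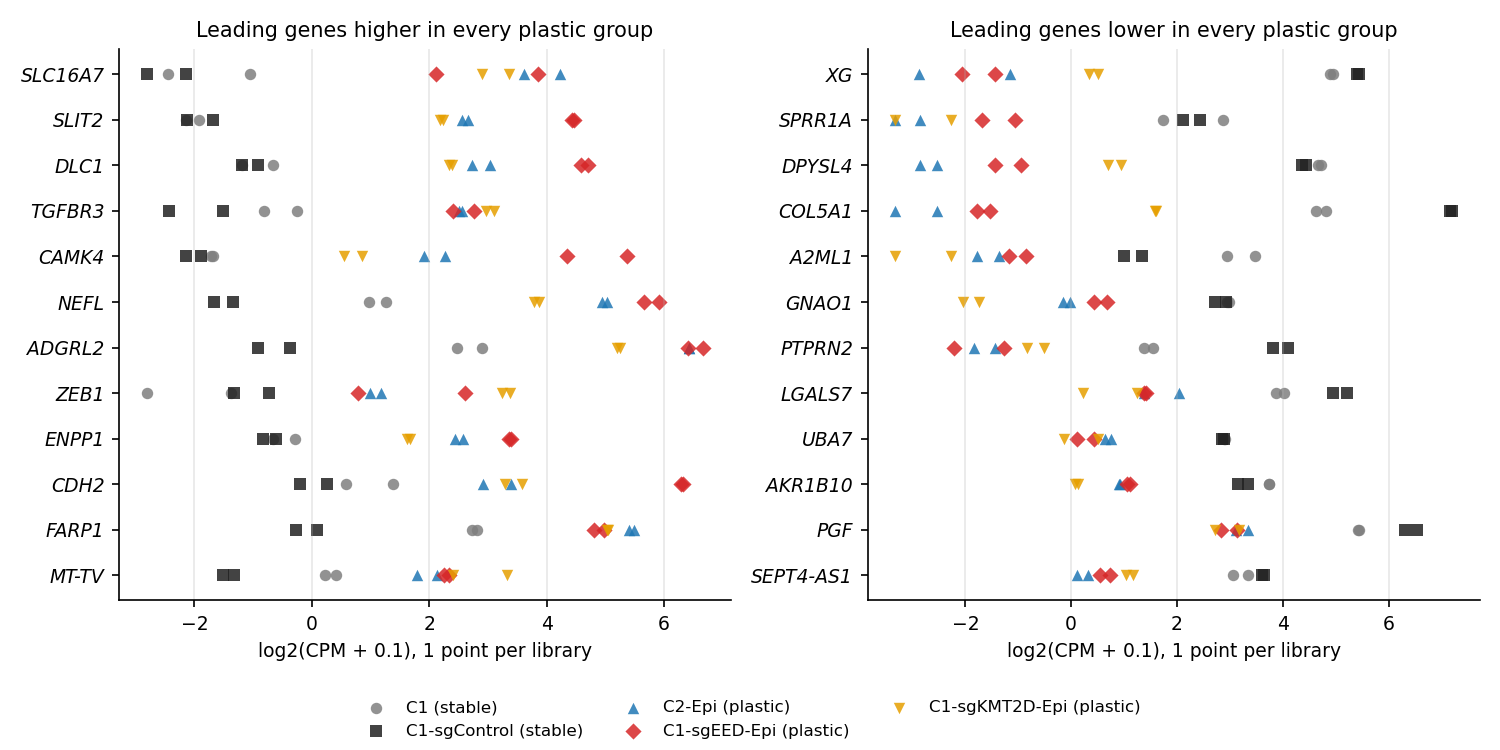
Level in each of the 10 epithelial libraries, as log2(CPM + 0.1) with 1 point per library, of the 12 higher (left) and 12 lower (right) genes with the largest smallest difference over the 6 pairs. Plastic and stable points do not overlap for any of the 24 genes, which holds for all 1140 called genes from which they were chosen. The plastic groups lie apart from each other for many.

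The plot of leading genes shows the 12 higher and 12 lower genes that a rule on effect size named. They are the genes with the largest smallest difference over the 6 pairs and at least 5 CPM on the higher side. Of the 24, 21 passed in all 6 pairs in each of 22 alternative analyses, ZEB1, MT-TV and PTPRN2 being the exceptions. The alternatives reuse the libraries that chose these genes by effect size, so passing again was favoured by the choice and is not independent support. The plastic groups differed among themselves in 15 of the 24.

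SLC16A7 led the higher genes. It encodes the monocarboxylate transporter MCT2, which carries lactate and pyruvate. Its level was 0.382 and 0.0818 CPM in C1, 0.126 and 0.0428 in C1-sgControl, 12.2 and 18.5 in C2-Epi, 14.3 and 4.21 in C1-sgEED-Epi and 10.1 and 7.37 in C1-sgKMT2D-Epi. The lowest plastic library was above the highest stable one by more than an order of magnitude, and the average difference was 6.21 ± 0.69 (largest adjusted p = 0.0012), or 5.08 with the correction.

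SLIT2 (chromosome 4, 20253260 to 20620561) encodes a secreted guidance ligand of the ROBO receptors. It stood at 0.127 and 0.164 CPM in C1 and 0.210 and 0.129 in C1-sgControl. It stood at 6.21 and 5.76 in C2-Epi, 21.4 and 21.9 in C1-sgEED-Epi and 4.43 and 4.62 in C1-sgKMT2D-Epi. The average difference was 5.69 ± 0.22 (largest adjusted p = 3.0e-07), with C1-sgEED-Epi above the other plastic groups. DLC1, a GTPase-activating protein, followed the same order, with 0.336 to 0.532 CPM in stable libraries, 8.06 and 6.50 in C2-Epi, 23.8 and 25.9 in C1-sgEED-Epi and 5.10 and 4.94 in C1-sgKMT2D-Epi (average 4.55 ± 0.18). ENPP1, an ectoenzyme that makes pyrophosphate from ATP, stood at 0.462 to 0.721 CPM in stable and 2.99 to 10.4 in plastic libraries (average 3.30 ± 0.20). In mesenchymal libraries DLC1 reached 34.4 to 197 CPM and ENPP1 52.0 to 237.

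TGFBR3, the TGF-beta co-receptor betaglycan, stood at 0.467 and 0.736 CPM in C1 and 0.252 and 0.0857 in C1-sgControl, against 5.56 and 5.80 in C2-Epi, 5.18 and 6.67 in C1-sgEED-Epi and 8.51 and 7.69 in C1-sgKMT2D-Epi. The plastic groups lay close together (adjusted p = 0.32 among them), and the average difference was 4.32 ± 0.31 (largest adjusted p = 8.9e-05). It was the 1 gene of 46 on the TGF-beta and BMP list to be higher in all 6 pairs, beside 2.01% of all genes tested. Lower in all 6 were 3 of the list, LTBP3, BMP1 and SMURF1, beside 4.22% of all genes tested. Of these 3, SMURF1, a ubiquitin ligase that turns over SMADs and receptors, kept its call with the correction, while LTBP3 and BMP1 (-0.60 and -0.51 with it) did not.

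NEFL and NEFM, the light and medium neurofilament subunits, were 2 of 7 measured neural markers and the 2 called. NEFL stood at 1.87 and 2.29 CPM in C1, 0.294 and 0.214 in C1-sgControl, 30.6 and 32.3 in C2-Epi, 50.6 and 59.8 in C1-sgEED-Epi and 13.7 and 14.6 in C1-sgKMT2D-Epi (average 5.31 ± 0.26, largest adjusted p = 2.6e-05). NEFM stood at 2.85 to 11.5 CPM in stable and 22.1 or more in plastic libraries. The 7 neural markers summed to 13.1 to 39.7 CPM in stable and 48.2 to 159 in plastic libraries, and the other 5 were not called.

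Further genes of the leading set had stable groups that differed or plastic groups far apart. ADGRL2, an adhesion G protein-coupled receptor of the latrophilin family, stood at 5.43 and 7.32 CPM in C1, 0.671 and 0.428 in C1-sgControl and 36.4 to 102 in plastic libraries (average 5.15 ± 0.19). FARP1, an exchange factor for Rac, stood at 6.53 and 6.91 CPM in C1, 0.965 and 0.728 in C1-sgControl and 28.0 to 44.6 in plastic libraries (average 3.86 ± 0.22). For both, C1 was above C1-sgControl (adjusted p = 7.3e-06 and 9.5e-05). CAMK4, a calcium-dependent kinase, stood at 0.126 to 0.212 CPM in stable libraries, 3.65 and 4.69 in C2-Epi, 41.2 and 20.1 in C1-sgEED-Epi and 1.70 and 1.35 in C1-sgKMT2D-Epi. MT-TV, the mitochondrial valine tRNA, lost its call with the correction (largest adjusted p = 0.17), and 4 of the 30 mitochondrial genes tested were higher, all of them tRNA genes.

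Among lists with at least 20 measured genes, cholesterol synthesis had the largest share of higher genes, 6 of 27 (HMGCS1, IDI1, MSMO1, SC5D and INSIG1 among them), with none lower and a median of 0.49 over the list. On the plastic average 16 were higher and 4 lower, against 25.0% and 31.3% of all genes. INSIG1, the ER protein that restrains SREBP and is itself an SREBP target, stood at 68.9 and 53.9 CPM in C1, 42.6 and 56.2 in C1-sgControl, 289 and 308 in C2-Epi, 164 and 186 in C1-sgEED-Epi and 196 and 179 in C1-sgKMT2D-Epi. Every plastic library was above every stable one, and the average difference was 1.96 ± 0.17 (largest adjusted p = 0.00089). IDI1, which makes dimethylallyl diphosphate, stood at 44.2 to 64.9 CPM in stable and 113 to 249 in plastic libraries (average 1.70 ± 0.12). HMGCS1, the HMG-CoA synthase, stood at 109.6 ± 8.69 CPM in C1 (mean ± SD, n = 2), 50.1 and 42.9 in C1-sgControl and 257 to 451 in plastic libraries (average 2.25 ± 0.29). The 6 called genes had a median GC content of 40.6% against 53.5% for the list. With the correction 6 of the list were again higher, of which 3 were the same (IDI1, SC5D and INSIG1). HMGCS1 was among those lost (average difference 1.75 with the correction, largest adjusted p = 0.10).

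Other genes higher in every plastic group came from the growth factor and matrix lists. NRG1, the ligand of ERBB3 and ERBB4, stood at 23.8 and 23.9 CPM in C1, 15.3 and 11.7 in C1-sgControl, 64.0 and 62.4 in C2-Epi, 63.8 and 72.0 in C1-sgEED-Epi and 73.8 and 67.5 in C1-sgKMT2D-Epi. The plastic groups were close together (adjusted p = 0.64 among them) and the average difference was 1.91 ± 0.10 (largest adjusted p = 1.6e-05). MET, the receptor of hepatocyte growth factor, was also higher (0.88 ± 0.11) but not with the correction (0.44, largest adjusted p = 0.22). COL8A1, a short-chain collagen, stood at 22.2 to 34.7 CPM in stable and 82.5 to 144 in plastic libraries (average 1.93 ± 0.15). PLOD2, which hydroxylates collagen lysines, stood at 58.0 to 120.4 and 178 to 355 CPM (average 1.53 ± 0.16, and 0.64 with the correction).

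**Figure D4:**
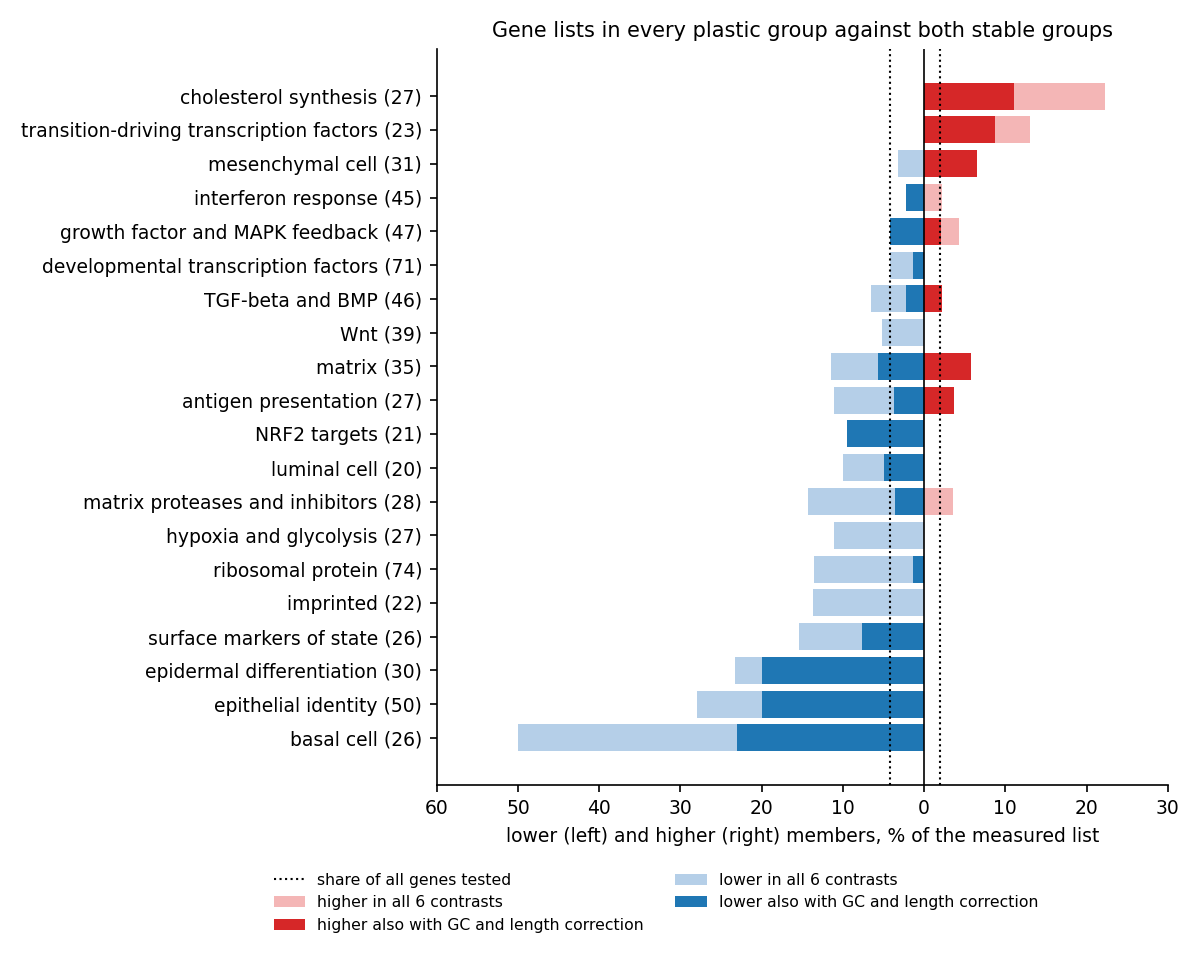
Share of each gene list that was lower (left, blue) or higher (right, red) in all 6 pairs, in percent of the measured genes, whose number stands in brackets. Dark parts were called also with the GC and length correction, dotted lines mark the share of all genes tested (4.22% lower, 2.01% higher), and lists with at least 20 measured genes and 2 calls are shown.

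Without the correction, basal cell genes were the list with the largest share of lower genes, 13 of 26, with none higher and a median of -1.03, as the plot of gene lists shows. With it 6 of 26 were lower, a smaller share than the 8 of 30 of epidermal differentiation and the 5 of 21 of NRF2 targets. The 13 lower without the correction were KRT5, KRT14, KRT16 and KRT17 (basal and stress keratins), LAMA3 and LAMB3 (laminin-332 chains), COL17A1 and ITGB4 (hemidesmosome proteins), NGFR, TRIM29, SERPINB5, LGALS7 and CDH13. The list as a whole summed to 36320 to 37440 CPM in stable and 17890 to 22570 in plastic libraries. COL17A1 (chromosome 10, 104031286 to 104085957) stood at 932 and 955 CPM in C1, 954 and 877 in C1-sgControl, 381 and 377 in C2-Epi, 364 and 432 in C1-sgEED-Epi and 418 and 419 in C1-sgKMT2D-Epi. Both kinds of group were tight, and the average difference was -1.22 ± 0.17 (largest adjusted p = 0.0045). NGFR, the low-affinity nerve growth factor receptor, stood at 20.3 and 22.8 CPM in C1, 35.7 and 32.8 in C1-sgControl, 7.04 and 5.92 in C2-Epi, 2.82 and 2.35 in C1-sgEED-Epi and 0.496 and 0.598 in C1-sgKMT2D-Epi (average -3.70 ± 0.15).

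KRT5 stood at 8501 and 8643 CPM in C1, 6646 and 7741 in C1-sgControl, 3848 and 3812 in C2-Epi, 3845 and 4636 in C1-sgEED-Epi and 3772 and 3678 in C1-sgKMT2D-Epi. KRT14, its partner, was lower by unequal amounts, with 1832 to 2516 CPM in stable libraries, 1274 and 1235 in C2-Epi, 235 and 295 in C1-sgEED-Epi and 55.8 and 51.7 in C1-sgKMT2D-Epi. The difference of KRT5 was about the same in each plastic group (adjusted p = 0.66 among them), while that of KRT14 was not (1.4e-08). With the correction KRT5 (average -1.0 without and -0.46 with it, largest adjusted p = 0.56) and KRT14 (-2.99 and -2.23, 0.73) lost their calls, as did ITGB4 (-1.05 and -0.40, 0.98). The 6 of the list that were called with and without it were LAMA3, COL17A1, SERPINB5, NGFR, LGALS7 and CDH13. LGALS7 has a near-identical neighbour copy, LGALS7B, and reads may have been split between them.

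Epithelial identity genes were lower in 14 of 50, with none higher and a median of -0.82. On the plastic average 37 were lower and 5 higher. The 14 included CLDN4, CLDN7 and MARVELD2 (tight junctions), PKP1 and EVPL (desmosome and envelope), CDH3 (P-cadherin), RAB25 and AP1M2 (vesicle sorting), PRSS8 (prostasin), LLGL2 (polarity), FXYD3 and the transcription factor OVOL1. With the correction 10 of them were called again, and EVPL, AP1M2 and LLGL2 were among those lost (average -0.31, -0.65 and -0.56 with the correction). The summed list stood at 7695 to 9115 CPM in stable and 4746 to 6143 in plastic libraries.

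FXYD3, a regulator of the sodium pump, stood at 111 and 113 CPM in C1, 123 and 155 in C1-sgControl, 23.3 and 21.8 in C2-Epi, 32.1 and 38.9 in C1-sgEED-Epi and 8.72 and 11.0 in C1-sgKMT2D-Epi (average -2.65 ± 0.18, largest adjusted p = 0.00092). PRSS8 stood at 34.0 to 42.8 CPM in stable libraries, 8.42 and 6.99 in C2-Epi, 10.9 and 13.4 in C1-sgEED-Epi and 1.31 and 1.39 in C1-sgKMT2D-Epi (average -2.93 ± 0.13, and -2.11 with the correction). OVOL1, a transcription factor that holds the epithelial state, stood at 11.2 to 12.7 CPM in stable libraries, 3.65 and 3.07 in C2-Epi, 4.68 and 5.72 in C1-sgEED-Epi and 1.21 and 1.39 in C1-sgKMT2D-Epi (average -2.05 ± 0.18, and -1.50 with the correction). In all 3 genes, C1-sgKMT2D-Epi was lowest and the plastic groups differed (adjusted p = 0.0007, 5.4e-07 and 0.00063). In mesenchymal libraries FXYD3 stood at 1.29 CPM or less and PRSS8 at 0.383 or less.

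Promoters are shown for those lower epithelial genes that hold the E-box CAGGTG, which ZEB and SNAI proteins bind, read on both strands (CAGGTG or CACCTG). RefSeq promoter sequences of 300 bases (250 before and 50 after the start of the gene, GRCh38.p14) were at hand for 7 of the 14 genes, and 2 held the motif, RAB25 with 2 matches and AP1M2 with 3. RAB25 lies at chr1:156060910-156061209 (plus strand) and AP1M2 at chr19:10587263-10587562 (minus strand). Capitals mark the E-boxes, 5′ to 3′ on the strand of the gene.
RAB25: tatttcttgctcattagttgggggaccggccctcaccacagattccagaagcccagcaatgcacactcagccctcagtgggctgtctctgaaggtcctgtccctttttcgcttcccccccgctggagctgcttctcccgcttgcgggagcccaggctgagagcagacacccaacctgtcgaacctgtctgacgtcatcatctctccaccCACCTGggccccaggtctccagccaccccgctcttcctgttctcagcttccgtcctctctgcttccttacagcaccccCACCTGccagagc
AP1M2: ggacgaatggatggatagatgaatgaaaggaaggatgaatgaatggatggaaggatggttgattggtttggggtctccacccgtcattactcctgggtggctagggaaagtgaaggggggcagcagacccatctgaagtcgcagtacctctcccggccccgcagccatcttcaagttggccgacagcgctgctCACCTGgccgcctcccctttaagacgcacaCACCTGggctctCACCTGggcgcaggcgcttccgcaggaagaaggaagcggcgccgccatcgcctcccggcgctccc
The motif was in 25.5% of the promoters of lower genes, 15.1% of those of higher genes, 18.6% of those of all genes tested and 20.6% of all promoters in the table. The lower genes also held more exonic GC than the higher genes (median 58.4% against 41.7%). The part of base composition in these shares was not tested. A match is not evidence of binding.

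RAB25, a GTPase of apical recycling, stood at 56.4 and 51.3 CPM in C1, 61.2 and 72.4 in C1-sgControl, 27.3 and 25.3 in C2-Epi, 26.0 and 30.3 in C1-sgEED-Epi and 5.64 and 6.81 in C1-sgKMT2D-Epi (average -1.85 ± 0.12, largest adjusted p = 0.0024, and -1.23 with the correction). AP1M2, the epithelial subunit of a clathrin adaptor, stood at 66.9 to 88.3 CPM in stable and 25.3 to 41.9 in plastic libraries (average -1.21 ± 0.11), and lost its call with the correction (-0.65, largest adjusted p = 0.18). The group lowest in RAB25 was C1-sgKMT2D-Epi, the plastic group highest in ZEB1 and ZEB2, but 3 groups do not allow a relation to be tested.

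Genes of epidermal differentiation were lower in 7 of 30 (SPRR1A, SPRR1B, LCE3D, CNFN, KRT1, CALML3 and A2ML1) and higher in none, and 24 of 30 were lower on the plastic average. The median of -1.87 was the lowest of the lists with at least 20 measured genes. These genes build the cornified envelope of stratified epithelium or inhibit its proteases. SPRR1A stood at 7.26 and 3.23 CPM in C1, 4.24 and 5.31 in C1-sgControl and at most 0.381 in any plastic library (average -6.05 ± 0.43, largest adjusted p = 0.00020). SPRR1B stood at 84.1 and 64.6 CPM in C1, 16.9 and 20.3 in C1-sgControl, 2.71 and 3.31 in C2-Epi, 6.47 and 5.62 in C1-sgEED-Epi and 0.922 and 0.478 in C1-sgKMT2D-Epi. A2ML1, a protease inhibitor of the epidermis, stood at 11.1 and 7.57 CPM in C1, 1.89 and 2.44 in C1-sgControl and 0 to 0.456 in plastic libraries. C1 was above C1-sgControl for SPRR1B and A2ML1 (adjusted p = 6.8e-05 and 0.0015), and 6 of the 7 genes, all but CNFN, were called with the correction too.

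The leading lower genes were of mixed function. XG, the blood group antigen of the red cell surface, stood at 29.5 and 31.0 CPM in C1, 43.3 and 42.1 in C1-sgControl, 0.0361 and 0.346 in C2-Epi, 0.267 and 0.140 in C1-sgEED-Epi and 1.17 and 1.31 in C1-sgKMT2D-Epi. It had the largest smallest difference of the lower set (4.60) and an average of -6.62 ± 0.45 (largest adjusted p = 0.00011). Mesenchymal cells of the KMT2D guide held 24.2 and 23.3 CPM of XG, well above their epithelial counterparts.

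COL5A1 (chromosome 9, 134641774 to 134844843), the main chain of collagen V and often counted as a mesenchymal gene, was lower in the plastic groups. It stood at 24.5 and 28.1 CPM in C1, 147 and 144 in C1-sgControl, 0.0723 and 0 in C2-Epi, 0.190 and 0.246 in C1-sgEED-Epi and 2.91 and 2.95 in C1-sgKMT2D-Epi (average -7.67 ± 0.16, largest adjusted p = 1.3e-07). The stable groups differed too (adjusted p = 1.5e-06), and the mesenchymal libraries held 0.613 to 1.02 CPM. On the matrix list, 2 of 35 were higher and 4 lower, beside 2.01% and 4.22% of all genes tested. The other 3 lower genes were COL18A1, BGN and P4HA2, of which only P4HA2 passed with the correction (COL18A1 -0.80 and BGN -1.84, largest adjusted p = 0.86 and 0.38).

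DPYSL4, a relative of the collapsin response mediators, stood at 20.4 to 26.2 CPM in stable libraries, 0.0723 and 0.0384 in C2-Epi, 0.267 and 0.421 in C1-sgEED-Epi and 1.52 and 1.83 in C1-sgKMT2D-Epi (average -6.14 ± 0.19). GNAO1, a G protein alpha subunit, stood at 6.47 to 7.77 and 0.142 to 1.51 CPM in stable and plastic libraries (average -3.64 ± 0.17). AKR1B10, an aldo-keto reductase driven by NRF2, stood at 13.2 and 13.3 CPM in C1, 8.85 and 10.1 in C1-sgControl and 0.956 to 2.06 in plastic libraries (average -2.88 ± 0.11). It was 1 of 2 among 21 NRF2 targets to be lower in all 6 pairs, the other being AKR1C2, and none was higher. With the correction 5 of the 21 were lower, these 2 among them. PGF, placental growth factor, stood at 43.4 and 42.9 CPM in C1, 92.3 and 79.3 in C1-sgControl and 6.45 to 10.0 in plastic libraries (average -2.88 ± 0.20), with no difference called among the plastic groups (adjusted p = 0.71). UBA7, the enzyme that activates ISG15, stood at 7.13 to 7.43 CPM in stable and 0.815 to 1.59 in plastic libraries (average -2.58 ± 0.22). PTPRN2 lost its call with the correction (largest adjusted p = 0.091). SEPT4-AS1 is an antisense transcript, and without a known strand setting its reads cannot be told from those of its partner.

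Of 26 surface markers of mammary cell state, 4 were lower in every plastic group (CD44, ITGB4, PROCR and LRP1) and none was higher. With the correction CD44 and PROCR kept their calls. ITGB4 and LRP1 lost theirs (average -0.40 and -0.53 with it, largest adjusted p = 0.98 and 0.3). CD44 stood at 1466 to 1653 CPM in stable libraries, 764 and 803 in C2-Epi, 1074 and 1134 in C1-sgEED-Epi and 878 and 841 in C1-sgKMT2D-Epi (average -0.78 ± 0.09, largest adjusted p = 0.030, and -1.0 and 0.00050 with the correction). High CD44 is commonly read as a mesenchymal or stem-like sign, and here the plastic epithelial groups were the lower ones. Mesenchymal libraries, at 795 to 1043 CPM, lay below the stable ones too. CD44 passed in 12 of 22 alternative analyses. PROCR, the protein C receptor of some mammary progenitors, stood at 103 to 177 CPM in stable and 34.1 to 62.3 in plastic libraries (average -1.40 ± 0.08). CD24, a luminal surface protein, was not called, with 171 to 205 CPM in stable libraries, 131 and 133 in C2-Epi, 318 and 356 in C1-sgEED-Epi and 179 and 172 in C1-sgKMT2D-Epi. KRT8, a luminal keratin, was not called either.

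Of 27 antigen presentation genes, 3 were lower, HLA-F and TAP1 among them, and MICB, a stress ligand for NKG2D, was higher. Of all genes tested, 4.22% were lower and 2.01% higher. TAP1 and MICB were called with the correction too. TAP1, a peptide transporter, stood at 78.9 to 104 CPM in stable and 24.9 to 52.6 in plastic libraries (average -1.40 ± 0.11, and -0.88 with the correction). Of 45 interferon response genes, OASL was lower and IFI44L higher (the latter not with the correction, largest adjusted p = 0.081), shares near those of all genes.

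Cell cycle genes give an example of a list that the plastic average sets apart and the 6 pairs do not. On the average 37 of 40 were higher, with a median of 0.85, but none passed in all 6 pairs. The medians were 1.29, 1.74 and 1.64 against C1-sgControl for C2-Epi, C1-sgEED-Epi and C1-sgKMT2D-Epi, and -0.06, 0.29 and 0.26 against C1. Ribosomal protein genes were lower in 10 of 74, and 66 were lower on the average. Their medians were -0.87, -0.82 and -0.79 against C1-sgControl and -0.27, -0.22 and -0.21 against C1, beside the higher share of ribosomal protein counts in C1-sgControl given above. With the correction, RPL13 alone of the 10 was called again, as 1 of 3 of the list lower in all 6 pairs. On the corrected average 50 of the 74 were lower, with a median of -0.39.

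**Figure D5:**
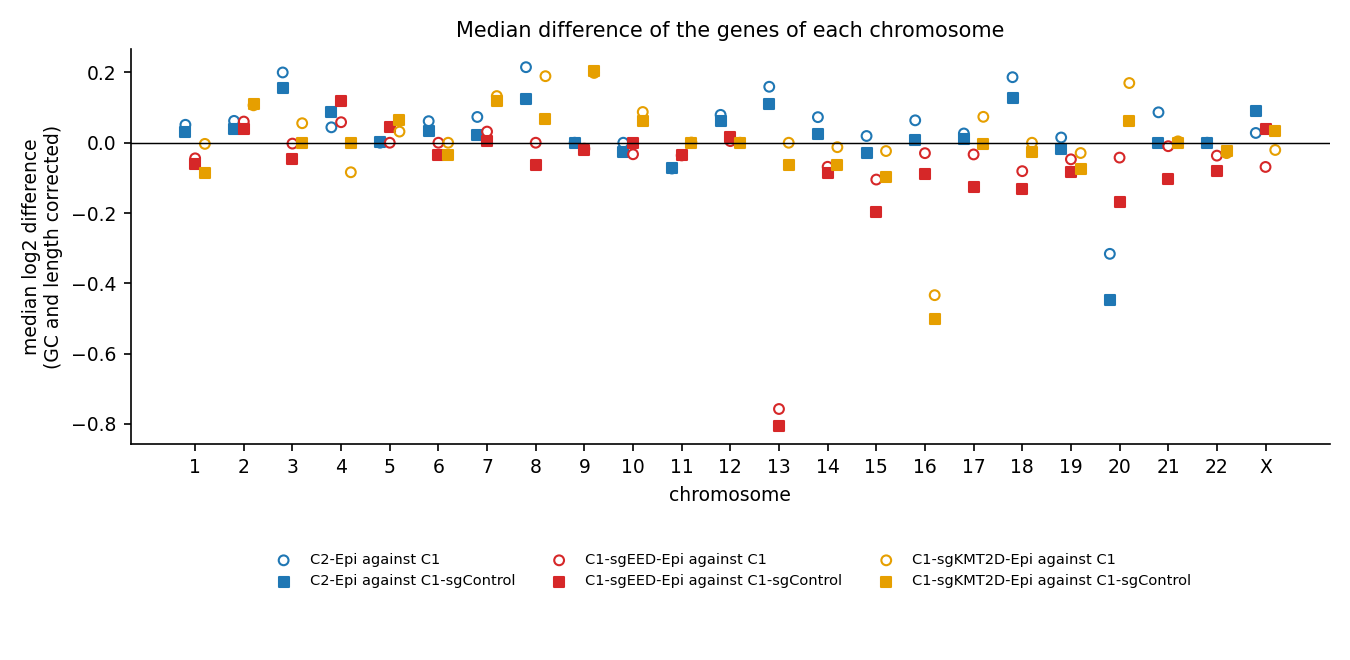
Median log2 difference of the genes on each chromosome, with the GC and length correction, for each plastic group against C1 (open circles) and C1-sgControl (filled squares). One chromosome stands low in each plastic group, 13 in C1-sgEED-Epi, 16 in C1-sgKMT2D-Epi and 20 in C2-Epi.

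Each plastic group also had, with the correction, 1 chromosome whose genes were low as a body, and it was not the same one. With the correction, the 337 genes of chromosome 13 had a median of -0.76 against C1 and -0.81 against C1-sgControl in C1-sgEED-Epi, where the other plastic groups lay between -0.06 and 0.16. The 810 genes of chromosome 16 had medians of -0.43 and -0.50 in C1-sgKMT2D-Epi, and the 481 genes of chromosome 20 medians of -0.32 and -0.45 in C2-Epi. Without the correction the values were -0.58 and -0.47 for chromosome 13, -0.89 and -1.02 for chromosome 16 and -0.53 and -0.77 for chromosome 20, as the plot of chromosome medians shows for the corrected ones. Other chromosomes were low too without it. Medians of chromosome 19 were -0.41 and -0.58 in C2-Epi, -0.24 and -0.40 in C1-sgEED-Epi and -0.49 and -0.70 in C1-sgKMT2D-Epi. The pattern was noticed after the data were seen and is given as a description. Genes on chromosome 16 did not all follow it. GNAO1, PRSS8 and CDH3 had their lowest mean of the plastic groups in C1-sgKMT2D-Epi, while CDH1, CDH11 and CDH13 did not. The part of the chromosome in such differences was not tested.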

How the data were processed

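RNA was sequenced from HMLER cells in 16 libraries of 8 groups. The authors aligned reads to GRCh38 with STAR 2.7.1a and counted them per gene with featureCounts, per the submitters' processing notes. The deposited values are whole-number counts of 60448 genes. The annotation release, strand setting and treatment of multiply mapped reads are not given in the sources used here. Symbols, positions, exonic GC and lengths came from GENCODE 29 (56868 genes).

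Counts were filtered with filterByExpr, scaled by TMM and fitted in edgeR 4.0.16 (R 4.3.3; glmQLFit, robust) with 8 group means over the 16 libraries, which leaves 8 residual degrees of freedom. CPM and log2 differences come from this fit, adjusted p-values are Benjamini-Hochberg over 18285 genes within each pair, and errors of averages are SEs of the fit. Group means were tested in limma 3.58.1 (trend, prior count 2, 3 residual degrees of freedom). Differences among plastic groups were tested with an F test. The GC and length correction fits, in every library, a smooth curve (spline, 4 degrees of freedom) to genes averaging 50 counts or more. Plots used matplotlib 3.10.9 under Python 3.11.15.

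Named genes are the 12 higher and 12 lower genes with the largest smallest difference over the 6 pairs (at least 5 CPM on the higher side, proper symbols), every called member of 36 gene lists with at least 1 CPM, and a fixed set of the edited genes and markers of state (CD24, CD44, CDH1, EED, EPCAM, FN1, ITGB4, KMT2D, KRT14, KRT8, SNAI2, VIM and ZEB1). Not all are printed, and some are not reported here. GPX1, FGGY, PGAP3, SARS and the genes called in opposite directions were chosen after their values were seen. The groups, lists and rules were chosen with earlier results of these data known. Alternatives were RLE scaling, no count filter, DESeq2 1.42.0, the 10 epithelial libraries alone, a replicate block, the correction, each group or library left out, and each stable group alone.

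On counts simulated with changes in every plastic library (17323 genes), the rule of 6 pairs found 83.3% of genes with a 4-fold change, 16.4% with a 2-fold change and 0% with a 1.5-fold change, and no unchanged gene was called (0). The rule therefore misses most small shared changes. Where only a GC trend was simulated, 2313 of 17381 genes were called uncorrected and 0 of 17388 corrected. That trend was linear and the same in all plastic libraries, with none in the stable ones, a form the correction removes by design. It therefore does not show how the correction does on the data, where the stable groups differed along GC too. On the counts simulated with changes, group means in limma found 28.4%, 80.6% and 98.5% at 1.5-, 2- and 4-fold, with 11 unchanged genes called. Those counts held no differences among groups of 1 kind. Total counts were 22980108 to 28058943 per epithelial library, and SEs and p-values reflect counting error and the spread between libraries.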

Additional observations from a re-analysis of the deposited data

Results flagged for a closer look

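Among the genes that were higher or lower in every plastic group, 40.2% of 1140 still differed among the 3 plastic groups (edgeR F test, adjusted p under 0.05), 105 of the 368 higher and 353 of the 772 lower, beside 40.8% of all genes tested. Pooled, the share was close to that of all genes, but it was smaller than that among the higher genes and larger among the lower genes. In the leading set the count was 15 of 24. KRT14 and NGFR are examples among the lower genes and CDH2, SLIT2 and CAMK4 among the higher.

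The 3 plastic groups also moved apart in some genes. In 305 of 18285 genes tested, 2 plastic groups were called in opposite directions, each against both stable groups. There were 190 between C2-Epi and C1-sgEED-Epi, 174 between C2-Epi and C1-sgKMT2D-Epi and 52 between the edited groups. Calls in the same direction were more frequent, at 1367, 2070 and 2467 genes for these pairs in the same order. These comparisons share the stable libraries. COBL, an actin nucleator, stood at 9.76 and 10.2 CPM in C1, 8.18 and 7.37 in C1-sgControl, 0.0361 and 0.192 in C2-Epi, 43.5 and 48.7 in C1-sgEED-Epi and 25.3 and 26.1 in C1-sgKMT2D-Epi (adjusted p = 8.3e-09 among the plastic groups). NTSR1, the neurotensin receptor, went the other way, with 0.504 to 1.29 CPM in stable libraries, 12.1 and 11.5 in C2-Epi and at most 0.0762 in the edited groups (adjusted p = 3.1e-08). CADPS2, a protein of dense-core vesicle release, stood at 24.3 and 23.6 CPM in C1-sgEED-Epi, and at 0.142 to 0.319 in C2-Epi and C1-sgKMT2D-Epi, against 0.629 to 1.44 in stable libraries (adjusted p = 2.2e-09).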

How the results depend on the processing

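Of 368 higher and 772 lower genes, the counts stayed within 1.5 times under RLE scaling, DESeq2, C1 as the only stable group and leaving out C1-sgKMT2D-Epi. No filter on low counts gave 565 higher genes. The 10 epithelial libraries alone gave 849 higher and 1403 lower genes, and with the GC and length correction, a combination chosen after seeing the data, 789 higher. The correction in all libraries gave 440 lower genes. C1-sgControl as the only stable group gave 2362 and 2822, the rule without C2-Epi 979 and 1488, and without C1-sgEED-Epi 698 and 1372; fewer pairs have to pass in these 3. Leaving out 1 library at a time gave 145 to 407 higher and 303 to 624 lower genes. The higher count moved by over 1.5 times without C1 replicate 1 (191), C1 replicate 2 (145) and C2-Epi replicate 2 (232). The lower count did so without C1 replicate 1 (346), C1 replicate 2 (303), C2-Epi replicates 1 (404) and 2 (334), C1-sgControl replicate 2 (513), C1-sgEED-Epi replicates 1 (367) and 2 (495) and C1-sgKMT2D-Epi replicate 1 (472). A group is then 1 library, assumed to vary like the others.

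For the plastic average, the counts of 4576 higher and 5726 lower genes moved by less than 1.5 times in every alternative run except C1 as the only stable group, with 2374 higher. With groups as replicates, 0 calls were made except without the filter on low counts, where 36796 genes gave 66 higher and 157 lower; the cause was not tested.

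The replicate numbers do not pair the libraries: correlations of same-numbered deviations ran from -0.206 to 0.25 over 10 pairs of groups. With a replicate block 358 genes were higher and 723 lower in all 6 pairs, and 4571 and 5647 on the average.

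Of 2772 recomputed average differences of 126 genes, 21 reversed. With the correction EED went to -0.79 (10 libraries: -0.76), IRX1 to 0.0296 (0.0501), KRT8 to 0.0614 (0.0787) and SNAI2 to -0.29 (-0.28). With C1 alone EED went to -0.000183, FN1 to 0.30 and VIM to 0.50, and with C1-sgControl alone SNAI2 to -0.0270. Without C2-Epi FN1 was 0.12 and VIM 0.10, without C1-sgEED-Epi CD24 was -0.27, and without C1-sgKMT2D-Epi EED was -0.15 and SNAI2 -0.10. FN1 was 0.0042 without the filter and ranged from -0.0325 to 0.0167 with 1 library left out. None of these but IRX1 was called in all 6 pairs.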
